A study of Mus musculus with 50 samples.

Results

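Expression of genes of the dendritic cell lineage was followed in bulk RNA sequencing of p53/MCA sarcomas. The 10 genes were Xcr1, Clec9a, Batf3, Irf8, Itgae, Flt3, Zbtb46, Ccr7, Fscn1 and Siglech, found by matching the Ensembl identifiers of the count table to symbols, and they make up 10 of its 37469 genes. All 10 passed the filter on low counts. The tumors arose in the gastrocnemius muscle of mice of the 129/SvJae strain, and male and female mice were used. Primary tumors were induced in Trp53 fl/fl mice aged 6 to 10 weeks by an intramuscular adenovirus carrying Cre recombinase, which deletes Trp53 locally, followed by the carcinogen 3-methylcholanthrene (MCA). Transplant tumors grew after 50000 cells of a single line, 402230, were injected into the same muscle of syngeneic mice, so that all transplants share the tumor cells of 1 line. The mice were given muDX400, which blocks PD-1 on T cells, or its isotype control, followed at once by 0 or 20 Gy to the hind limb, and tumors were harvested 3 days later. With 8 primaries and 4 transplants under each of 4 treatments, there were 48 tumors. Tumors given 0 Gy and isotype are called untreated here, and they serve as the control of radiation alone as well as of the combination. Total counts ran from 31810461 to 54008259 per tumor.

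Dendritic cells take up antigen, carry it to lymph nodes and present it to T cells. The conventional type 1 subset (cDC1) cross-presents antigen from dying tumor cells to CD8 T cells, depends on the transcription factors Irf8 and Batf3, and carries the chemokine receptor Xcr1, the dead-cell receptor Clec9a (DNGR-1) and, in many tissues, the integrin chain Itgae (CD103). Flt3 is the receptor for the cytokine that drives the development of dendritic cells, and Zbtb46 is a transcription factor of conventional dendritic cells that endothelium also expresses. Ccr7, the receptor that guides cells to lymph nodes, and Fscn1 (fascin), a protein that bundles actin, mark mature, migrating dendritic cells, and fascin is also made by many mesenchymal and tumor cells. Siglech marks mouse plasmacytoid dendritic cells, the interferon-producing subset. Irf8 is shared with plasmacytoid cells, monocytes, macrophages and B cells, Itgae with tissue-resident CD8 T cells, and Ccr7 with naive T cells and B cells. In bulk tumors, fewer cells of a type and less RNA per cell cannot be told apart.

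A further pair of libraries carried the name of line 402230, and both went against their labels. The library labelled as the untreated parental primary tumor (P0I-402230) held 5 counts of Ptprc, which encodes the leukocyte antigen CD45, among 48457411 counts, and every tumor held more. Its summed macrophage markers stood at 9.81 CPM, against at least 679 CPM in the tumors, and its summed endothelial markers at 0.514 CPM, against at least 106.2 CPM. The library labelled as the cell line (CL0I-402230) held 3779 counts of Ptprc, 740 CPM of macrophage and 251 CPM of endothelial markers. Neither library entered the comparisons reported, except that the library labelled P0I-402230 was added to the untreated primaries as an alternative, and their values are given under these labels at the end.

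All 10 are protein-coding, and positions are those of GENCODE on GRCm38, also called mm10, the assembly the authors used. The cDC1 genes are Xcr1 (chr9:123852315-123862029, minus strand), Clec9a (chr6:129408862-129424763, plus), Batf3 (chr1:191097847-191108945, plus), Irf8 (chr8:120736358-120756694, plus) and Itgae (chr11:73090583-73147446, plus). The lineage genes are Flt3 (chr5:147330741-147400489, minus) and Zbtb46 (chr2:181387762-181459426, minus). The maturation genes are Ccr7 (chr11:99144196-99155077, minus) and Fscn1 (chr5:142960343-142973185, plus), and the plasmacytoid gene is Siglech (chr7:55768178-55778925, plus).

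The promoters of 4 of the genes are shown because Irf8 and Batf3 are the cDC1 factors whose level differed between conditions and Xcr1 and Clec9a are the cDC1 receptors, whose levels ran together from tumor to tumor. Each run is the 250 bases before a RefSeq transcription start in assembly GRCm38.p6, read in the direction of the gene. Irf8 lies on the plus strand with its window at chr8:120736108-120736357, Batf3 on the plus strand at chr1:191098164-191098413, Xcr1 on the minus strand at chr9:123862030-123862279 and Clec9a on the plus strand at chr6:129408612-129408861. Capitals mark matches to TTCNNNGAA, the core that STAT factors bind.
Irf8: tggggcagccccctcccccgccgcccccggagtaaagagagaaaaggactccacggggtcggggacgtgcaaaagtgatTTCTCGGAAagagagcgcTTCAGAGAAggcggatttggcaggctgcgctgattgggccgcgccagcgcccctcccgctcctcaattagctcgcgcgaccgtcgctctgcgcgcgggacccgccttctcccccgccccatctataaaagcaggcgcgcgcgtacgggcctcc
Batf3: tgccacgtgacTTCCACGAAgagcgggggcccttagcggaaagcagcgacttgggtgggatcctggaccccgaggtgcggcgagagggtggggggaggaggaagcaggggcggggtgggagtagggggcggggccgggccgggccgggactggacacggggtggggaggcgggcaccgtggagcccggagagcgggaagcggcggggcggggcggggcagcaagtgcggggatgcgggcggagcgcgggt
Xcr1: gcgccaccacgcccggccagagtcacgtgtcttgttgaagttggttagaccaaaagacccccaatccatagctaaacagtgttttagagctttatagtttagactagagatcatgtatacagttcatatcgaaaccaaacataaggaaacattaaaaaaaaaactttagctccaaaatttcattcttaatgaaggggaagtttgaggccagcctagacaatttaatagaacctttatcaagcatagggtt
Clec9a: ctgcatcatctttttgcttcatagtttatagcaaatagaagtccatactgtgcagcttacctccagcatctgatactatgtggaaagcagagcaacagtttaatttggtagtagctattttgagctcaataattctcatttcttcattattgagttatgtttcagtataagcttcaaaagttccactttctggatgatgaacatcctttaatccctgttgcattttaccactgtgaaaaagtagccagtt
The printed Irf8 window held TTCTCGGAA at 171 and TTCAGAGAA at 153 bases before the start, and the Batf3 window held TTCCACGAA at 239 bases before it. Irf8 had a second RefSeq window, at chr8:120738389-120738638, which is not printed and held no match to any motif searched. The core was found in 7.02% of 32851 promoter windows of the same length, searched on both strands. The other motifs searched were GAAA repeated after any 2 bases (the interferon response core, 2.98% of windows), GGAA followed after any 2 bases by GAAA (the composite bound by ETS factors with Irf4 or Irf8, 2.3%) and TGANTCA (the AP-1 site that BATF factors also bind, 6.75%). None of these lay in the 4 windows printed, and the matches did not overlap. RefSeq entries were matched for 8 of the 10 genes, and among the others the Siglech window held a STAT core, TTCTCTGAA, and the Zbtb46 window an AP-1 match, TGACTCA, at 61 bases before the start. Ccr7 and Itgae had no entry. A match is a run of letters and not a measured site.

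Levels of the 10 genes spanned a wide range, with Fscn1 and Irf8 far above the rest. Per kilobase of merged exon, the scale on which genes can be compared, Fscn1 had a median of 118.3 CPM per kilobase over the 48 tumors and Irf8 of 13.0, and each was above the next gene in 48 of 48 tumors. Batf3 (2.29 CPM per kilobase) and Ccr7 (2.16) came next and could not be ordered, since Batf3 was the higher in 27 of 48 tumors. Siglech (1.39), which lay under Ccr7 in 40 of 48 tumors, and Zbtb46 (0.921), which lay under Siglech in 37, stood between. Itgae (0.458) and Flt3 (0.431) shared a rank, with Itgae higher in 23 of 48 tumors, and Clec9a (0.293) and Xcr1 (0.286) closed the order, with Clec9a higher in 23. The cDC1 receptors therefore rested on few reads, at 1 to 291 counts of Xcr1 per library and 0 to 3.71 CPM of Clec9a. Part of the Clec9a exon sequence, 184 bases, is shared with Clec1b on the same strand, so reads there cannot be assigned to either.

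The genes also differed in how far they varied among tumors of the same group. Within groups of primary tumors the SD of log2 CPM was 1.56 for Xcr1, 1.40 for Clec9a and 1.24 for Siglech, against 0.44 for Zbtb46 and 0.42 for Fscn1. Within transplant groups it was smaller for 9 of the genes, at 1.11 for Xcr1, 0.94 for Clec9a, 0.33 for Irf8 and 0.18 for Zbtb46, and equal, at 0.42, for Fscn1. Single primary tumors marked the ends of the range. Replicate 6 of the primaries given 20 Gy and anti-PD-1 held 1 count of Xcr1 and 0 of Clec9a, where 3 counts would be 0.0686 CPM. Replicate 5 of the primaries given 20 Gy and isotype had the highest Xcr1 (7.65 CPM), Clec9a (3.71 CPM) and Irf8 (254 CPM) of the 48 tumors.

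**Figure D1:**
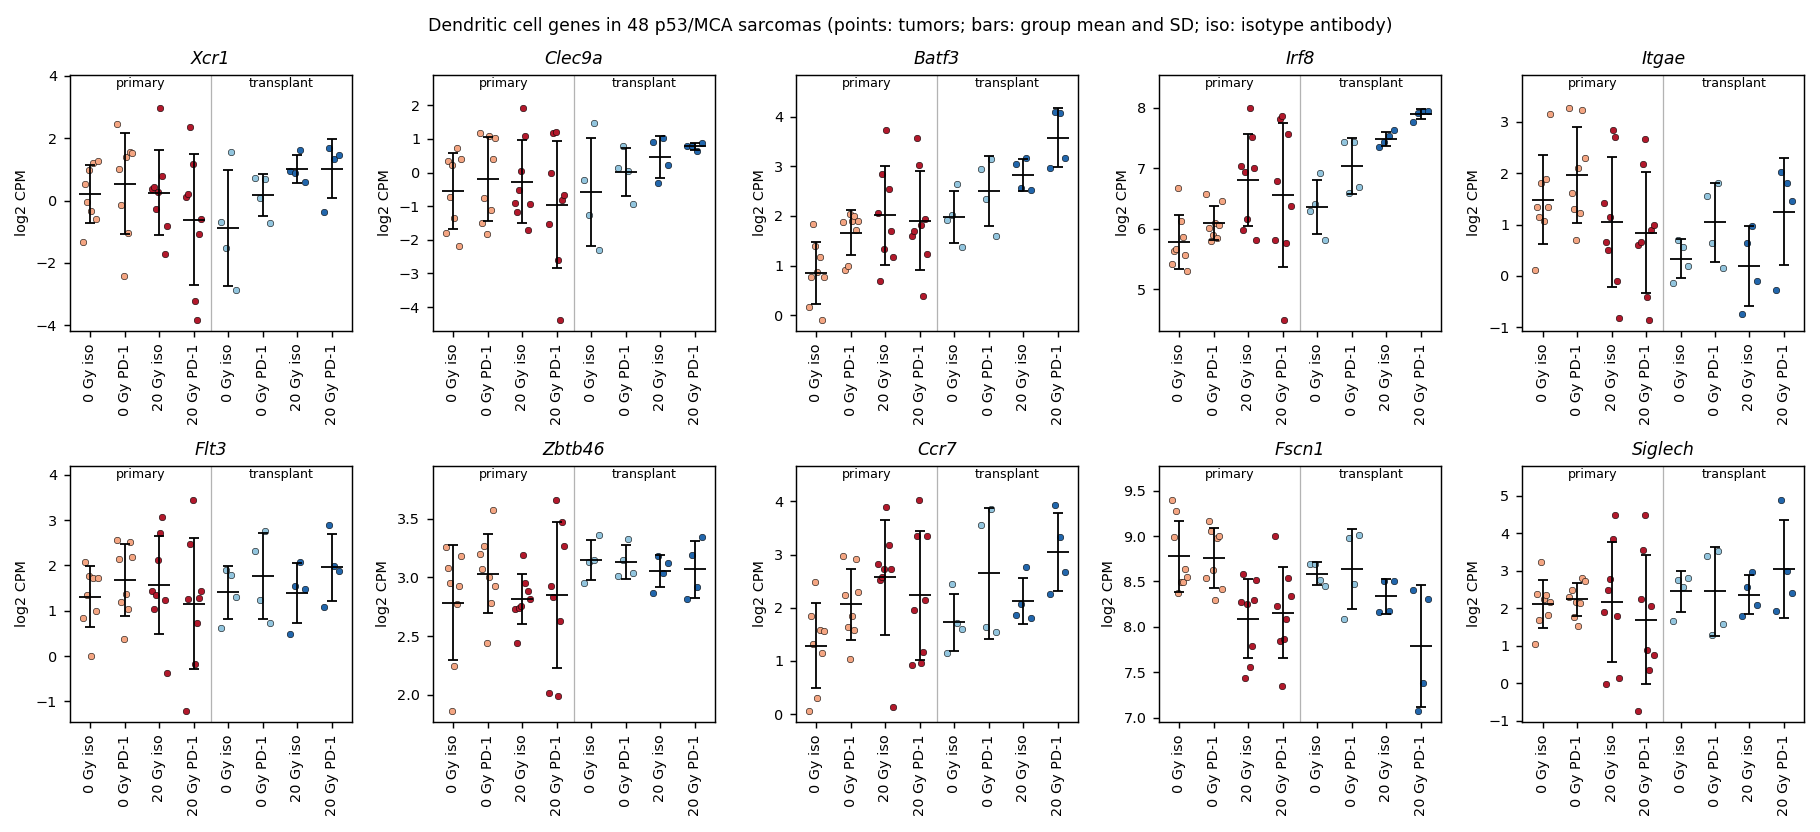
Log2 CPM (prior count of 2) of each of the 10 genes in 48 tumors, with 1 point per tumor and bars for the group mean and SD; groups run from untreated to 20 Gy with anti-PD-1, primary tumors on the left of each panel and transplants on the right. The group means of Irf8 and Batf3 stand higher at 20 Gy than at 0 Gy with either antibody in both models, those of Fscn1 stand lower, and Xcr1 and Clec9a scatter over several log2 units among primary tumors.

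Radiation in primary tumors was accompanied by higher Irf8, Batf3 and Ccr7 and lower Fscn1, with no call for the cDC1 receptors. Averaged over both antibodies, 16 irradiated against 16 unirradiated primaries, 4 of the 10 genes passed an adjusted p of 0.05 by edgeR's quasi-likelihood test, against 31.0% of all genes tested. A share of 4 in 10 was near that background. Irf8 was 1.96-fold higher (log2 change 0.97, SE 0.219, adjusted p = 0.000718), Batf3 1.92-fold higher (0.94, SE 0.263, adjusted p = 0.00591) and Ccr7 1.90-fold higher (0.93, SE 0.308, adjusted p = 0.0191). Fscn1 fell by 0.62 on the log2 scale (SE 0.146, adjusted p = 0.00111), a 1.54-fold lower level. These 4 calls held whichever of the 48 libraries was left out. With the mean of the muscle markers as a covariate the adjusted p of Ccr7 was 0.1, and with limma voom it was 0.128 for Ccr7 and 0.0582 for Batf3; over 8 alternatives it ranged from 0.00661 to 0.128 for Ccr7 and from 0.00138 to 0.0582 for Batf3.

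Among the cDC1 factors, Irf8 in untreated primaries ran from 39.7 to 102.5 CPM with a median of 50.2, and after 20 Gy with isotype from 56.4 to 254 CPM with a median of 125.4. All 8 irradiated tumors lay above the untreated median and 5 above the highest untreated tumor, so that the groups overlapped only in part. With anti-PD-1, Irf8 had a median of 66.1 CPM at 0 Gy (55.7 to 94.6) and of 96.8 CPM at 20 Gy (22.4 to 234), and the lowest irradiated tumor lay under every unirradiated primary. Batf3, which partners with Irf8 and Irf4 on shared sites, had a median of 1.72 CPM in untreated primaries (0.882 to 3.5) and of 3.67 CPM after 20 Gy with isotype (1.57 to 13.3). Of the irradiated tumors, 7 of 8 exceeded the untreated median and 4 the highest untreated tumor. With anti-PD-1 the Batf3 medians were 3.62 CPM at 0 Gy (1.83 to 4.07) and 3.33 CPM at 20 Gy (1.26 to 11.8), and the groups overlapped.

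The surface molecules of cDC1 did not follow their factors past the test. Xcr1 had medians of 1.15 CPM in untreated primaries (0.347 to 2.34) and 1.2 CPM after 20 Gy with isotype (0.259 to 7.65), and with anti-PD-1 of 2.28 CPM at 0 Gy (0.139 to 5.41) and 0.825 CPM at 20 Gy (0.0229 to 5.0). The fitted log2 change over both antibodies was -0.12 (SE 0.487). Clec9a had medians of 0.836 CPM (0.172 to 1.60) and 0.572 CPM (0.259 to 3.71) with isotype and of 0.914 CPM (0.231 to 2.22) and 0.555 CPM (0 to 2.26) with anti-PD-1, with a fitted change of 0.03 (SE 0.451). For both genes, over both antibodies, the range at 20 Gy covered the whole range at 0 Gy. Itgae had medians of 2.49 CPM (1.04 to 8.86) and 1.85 CPM (0.522 to 7.10) with isotype and of 3.62 CPM (1.57 to 9.51) and 1.67 CPM (0.503 to 6.31) with anti-PD-1, and its fitted change was -0.60 (SE 0.348, adjusted p = 0.192). The SEs of Xcr1 and Clec9a were larger than those of any other of the 10 genes, so that a difference was not detectable rather than absent.

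The lineage genes and the plasmacytoid marker showed no call after radiation in primaries. Flt3, the receptor for Flt3 ligand, had medians of 2.88 CPM at 0 Gy (0.95 to 4.15) and 2.57 CPM at 20 Gy (0.726 to 8.31) with isotype, and of 3.46 CPM (1.25 to 5.84) and 2.38 CPM (0.383 to 10.9) with anti-PD-1. Zbtb46 varied least, with group medians between 6.88 and 8.15 CPM and a fitted change of -0.06 (SE 0.135). Siglech had medians of 4.55 CPM (2.03 to 9.36) and 4.63 CPM (0.929 to 22.2) with isotype and of 4.69 CPM (2.82 to 6.97) and 2.99 CPM (0.547 to 22.4) with anti-PD-1. Irradiated primaries thus held both the lowest and the highest Flt3 and Siglech levels of the primary tumors, and their fitted changes were 0.19 (SE 0.325) and 0.47 (SE 0.396).

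Ccr7 and Fscn1, both listed for mature dendritic cells, moved in opposite directions. Fscn1 is not particular to these cells in bulk tumors. It stood at 351 CPM in the library labelled P0I-402230, which held 5 counts of Ptprc. Which cells the Fscn1 RNA of the tumors came from was not tested. Ccr7 had a median of 2.68 CPM in untreated primaries (0.988 to 5.53) and of 6.55 CPM after 20 Gy with isotype (1.04 to 14.7), and 7 of 8 irradiated tumors lay above the highest untreated one. With anti-PD-1 the medians were 4.10 CPM (2.01 to 7.86) and 4.12 CPM (1.86 to 16.3), and the groups overlapped. Fscn1 had a median of 387 CPM in untreated primaries (330 to 674) and of 307 CPM after 20 Gy with isotype (174 to 382), where 8 of 8 lay under the untreated median and 6 under the lowest untreated tumor. With anti-PD-1 its medians were 451 CPM (316 to 577) and 287 CPM (163 to 511).

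By antibody, the fitted changes of Irf8, Batf3 and Ccr7 in primaries were positive and that of Fscn1 negative in both arms. By edgeR these genes were called in the isotype arm alone. There 4 genes were called against 18.3% of all genes: Batf3 (log2 change 1.37, SE 0.376, adjusted p = 0.00837), Irf8 (1.13, SE 0.311, adjusted p = 0.0084), Ccr7 (1.38, SE 0.440, adjusted p = 0.0234) and Fscn1 (-0.68, SE 0.206, adjusted p = 0.0167). Without replicate 5 of the irradiated isotype group, the tumor with the highest Irf8, only Irf8 stayed called, with adjusted p of 0.0531 for Batf3, 0.0745 for Ccr7 and 0.0575 for Fscn1. Ccr7 was also lost without replicate 1 of the untreated primaries (0.0523), with limma voom (0.0612) and with the muscle covariate (0.0508), and Fscn1 without replicate 1 (0.0525) or 3 (0.0534) of the untreated or replicate 3 of the irradiated group (0.0576). In the anti-PD-1 arm 0 genes were called by edgeR, against 11.2% of all genes, with 2 at an unadjusted p under 0.05 and 2 called by DESeq2 (Irf8 and Fscn1). Irf8 differed by 0.81 there (SE 0.309, adjusted p = 0.0806) and Fscn1 by -0.56 (SE 0.206, adjusted p = 0.0687). Irf8 was called without replicate 1 (0.041), 5 (0.0155) or 6 (0.0448) of the primaries given 20 Gy and anti-PD-1, and Fscn1 without replicate 1 (0.0177). The difference between the arms was not tested.

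Irradiated primaries also held more RNA of leukocytes as a whole. Ptprc rose by 0.97 on the log2 scale (SE 0.206, adjusted p = 0.000373), the same size as Irf8. Set against Ptprc in the same tumor, Irf8 stood at a median of 65.7% of Ptprc CPM at 0 Gy and 61.0% at 20 Gy, Batf3 at 2.52% and 2.04% and Ccr7 at 3.70% and 3.04%. The genes without a call stood lower against Ptprc, with Xcr1 going from 1.66% to 0.526%, Itgae from 3.26% to 1.28%, Siglech from 4.61% to 2.31% and Flt3 from 2.97% to 1.60%. Of the markers of other cells, 6 of 7 macrophage, 5 of 6 muscle and 3 of 4 neutrophil genes passed the test as higher. Of the lymphocyte markers, 2 of 3 NK cell, 1 of 5 B cell and 0 of 7 T cell genes did. Of all 19327 genes tested, 3253 were called as higher, so these counts are not read as particular to a cell type. The summed muscle markers had a median of 1349 CPM at 0 Gy and 1591 CPM at 20 Gy, with a highest value of 66034 CPM, the neutrophil markers of 3.71 and 39.6 CPM, and the macrophage markers of 1246 and 1853 CPM. Apart from the muscle covariate given above, their part in the result was not tested.

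Radiation in transplants gave fitted changes of like size for Irf8, Batf3 and Fscn1. With 8 tumors a side, none of the 10 genes passed the adjusted test in the fit of all 48 tumors. Over both antibodies 0 genes were called by edgeR, against 7.23% of all genes, and DESeq2 and limma voom each called 1, Irf8. An unadjusted p under 0.05 was found for 3 of the 10, against 3768 of the 19327 genes tested. Irf8 differed by 0.94 (SE 0.309, unadjusted p = 0.00404, adjusted p = 0.0538, and 0.00105 to 0.166 over 8 alternatives). Batf3 differed by 0.93 (SE 0.370, adjusted p = 0.133, and 0.0227 to 0.211 over 8 alternatives) and Fscn1 by -0.51 (SE 0.206, adjusted p = 0.133). The fit of all 48 tumors used 1 estimate of the spread for both models. In log2 CPM, the SD within groups was 0.33 for Irf8 and 0.55 for Batf3 in transplants. In primaries it was 0.75 and 0.80. In an edgeR fit of the transplants alone, Irf8 (adjusted p = 0.00105) and Batf3 (adjusted p = 0.0227) were called. Leaving out 1 library brought Irf8 under the threshold in 14 of 48 fits (adjusted p 0.0224 to 0.0498). The libraries were replicate 3 of the untreated transplants and 13 primaries, namely replicate 4 untreated, 1 and 6 with anti-PD-1, 2, 4, 5 and 8 with 20 Gy, and 1, 3, 4, 5, 6 and 8 with both. Xcr1 had the largest fitted change, 1.01, with an SE of 0.695.

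By tumor, the pattern of Irf8 in transplants was more regular than in primaries. Irf8 stood at 78.8, 85.1, 120.8 and 56.5 CPM in the untreated transplants and at 165, 173, 184 and 198 CPM after 20 Gy with isotype. With anti-PD-1 it stood at 173, 96.0, 174 and 102.9 CPM at 0 Gy and at 218, 243, 246 and 245 CPM at 20 Gy. Within each antibody the irradiated and unirradiated tumors did not overlap. Ptprc separated them in the same way with either antibody. The share of all genes that did so was not counted, and the separation is not read as particular to Irf8. For single antibodies 0 of the 10 genes were called, against 1.92% of all genes with isotype and 0.595% with anti-PD-1, and DESeq2 and limma voom called 0. In each arm 1 of the 10 had an unadjusted p under 0.05 (Irf8 with isotype, Fscn1 with anti-PD-1). Of the 19327 genes tested, 2335 had such a p with isotype and 2540 with anti-PD-1.

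Batf3 stood at 3.75, 3.99, 6.17 and 2.53 CPM in untreated transplants and at 8.18, 5.90, 8.96 and 5.72 CPM after 20 Gy with isotype. With anti-PD-1 it stood at 7.68, 5.02, 8.82 and 2.97 CPM at 0 Gy and at 7.77, 17.1, 16.8 and 8.88 CPM at 20 Gy. The groups overlapped within each antibody. Fscn1 stood at 413, 414, 368 and 349 CPM untreated and at 286, 363, 288 and 363 CPM after 20 Gy with isotype, and with anti-PD-1 at 272, 506, 354 and 515 CPM at 0 Gy and at 339, 134.1, 166 and 318 CPM at 20 Gy. The lowest Fscn1 of all tumors, 134.1 CPM, was in the transplant with the highest Siglech (29.8 CPM) and Batf3 (17.1 CPM).

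The cDC1 receptors in transplants were low and uneven at 0 Gy. Xcr1 stood at 0.573, 0.298, 2.88 and 0.0897 CPM in untreated transplants, at 1.87, 1.78, 3.04 and 1.47 CPM after 20 Gy with isotype, at 1.58, 1.02, 1.57 and 0.558 CPM with anti-PD-1 alone and at 0.728, 3.16, 2.48 and 2.69 CPM after both. Clec9a stood at 0.811, 0.367, 2.77 and 0.157 CPM in untreated transplants, at 1.83, 0.766, 2.00 and 1.11 CPM after 20 Gy with isotype, at 1.06, 1.68, 0.991 and 0.482 CPM with anti-PD-1 alone and at 1.69, 1.69, 1.51 and 1.80 CPM after both. Replicate 3 of the untreated transplants held the highest value of its group for both receptors and overlapped with the irradiated tumors. Flt3 (0.06, SE 0.460), Zbtb46 (-0.08, SE 0.190), Ccr7 (0.28, SE 0.432), Itgae (0.13, SE 0.495), Clec9a (0.57, SE 0.635) and Siglech (0.34, SE 0.558) had fitted log2 changes smaller than their SE.

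Ptprc rose in irradiated transplants by 1.51 on the log2 scale (adjusted p = 0.000568), a larger fitted change than that of any of the 10 genes. Irf8 stood at a median of 62.5% of Ptprc CPM at 0 Gy and 44.7% at 20 Gy, Batf3 at 2.92% and 1.83%, Ccr7 at 2.88% and 1.30%, and Xcr1 at 0.540% and 0.506%. The change after radiation was then compared between the models. For 0 of the 10 genes did it differ, against 0.0259% of all genes, and DESeq2 and limma voom called 0. An unadjusted p under 0.05 was found for 0 of the 10, against 1652 of the 19327 genes tested. The difference, transplant minus primary, was -0.03 for Irf8 (SE 0.375), -0.01 for Batf3 (SE 0.434), 0.11 for Fscn1 (SE 0.251), -0.65 for Ccr7 (SE 0.529) and 1.13 for Xcr1 (SE 0.846).

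**Figure D2:**
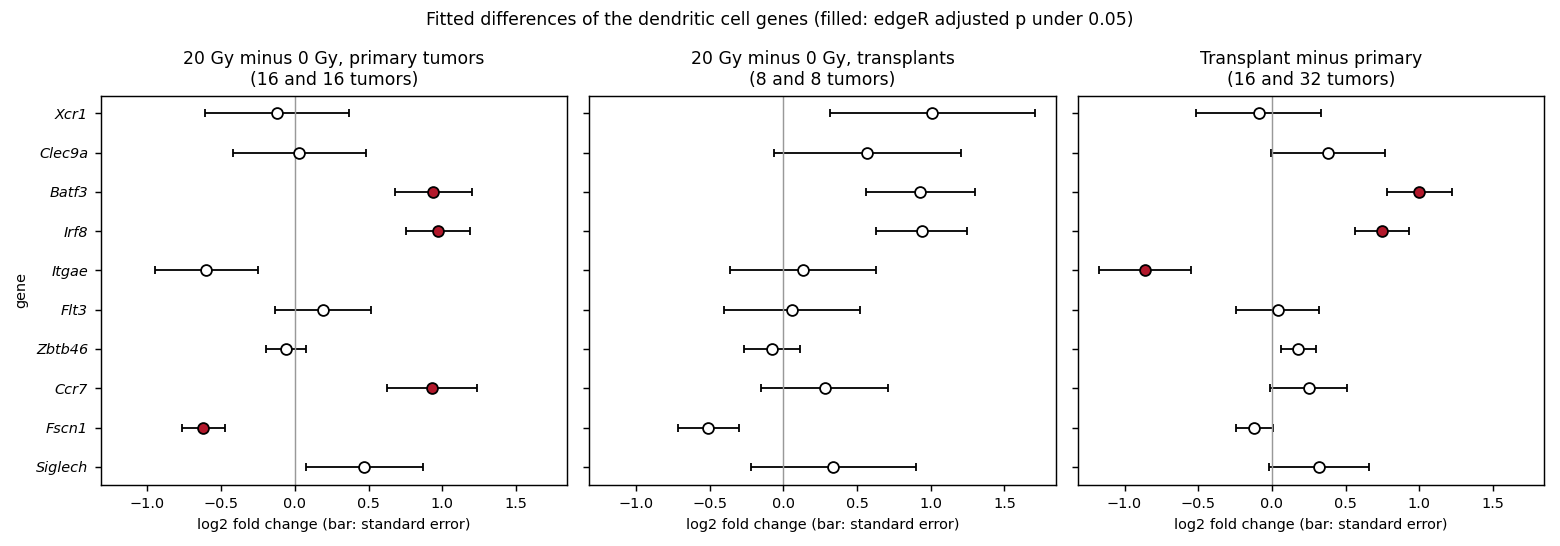
Fitted log2 fold changes of the 10 genes with their standard errors for 20 Gy minus 0 Gy in primary tumors, 20 Gy minus 0 Gy in transplants and transplant minus primary, with filled points at an edgeR adjusted p under 0.05. Irf8 and Batf3 lie near 1 in both radiation panels, with filled points in primaries and open points in transplants, where the errors are wider.

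Transplants held more Batf3 and Irf8 than primaries, and less Itgae. All transplants grew from 1 line, so that a difference of the model cannot be told apart from a trait of that line. Averaged over the 4 treatments, 3 of the 10 genes were called, against 34.8% of all genes. Batf3 was 2.00-fold higher (log2 difference 1.0, SE 0.219, adjusted p = 0.000356), with a median of 6.92 CPM in 16 transplants (2.53 to 17.1) and of 3.19 CPM in 32 primaries (0.882 to 13.3). Irf8 was 1.69-fold higher (0.75, SE 0.183, adjusted p = 0.00117), with medians of 173 CPM (56.5 to 246) and 67.5 CPM (22.4 to 254). Itgae was 1.82-fold lower (-0.86, SE 0.313, adjusted p = 0.0282), with medians of 1.51 CPM (0.545 to 4.01) and 2.36 CPM (0.503 to 9.51). The ranges of all 3 genes overlapped between the models. The fitted Itgae difference was negative under 3 of the 4 treatments and 0.23 (SE 0.598) after the combination, where its median was 3.07 CPM in transplants and 1.67 CPM in primaries. The Itgae call was lost without replicate 1 of the transplants given 20 Gy and isotype (-0.80, adjusted p = 0.0503), with limma voom (-0.64, adjusted p = 0.109) and with the library labelled P0I-402230 added (-0.82, adjusted p = 0.0597), in a range of 0.00929 to 0.109 over 7 alternatives.

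The other 7 genes differed by less than the test could call. Xcr1 had medians of 1.58 CPM in transplants and 1.14 CPM in primaries (log2 difference -0.09, SE 0.422), and Clec9a of 1.31 and 0.568 CPM (0.38, SE 0.384). Flt3 had medians of 3.17 and 2.52 CPM (0.04, SE 0.281), Zbtb46 of 8.67 and 7.57 CPM (0.18, SE 0.116) and Siglech of 5.91 and 4.45 CPM (0.32, SE 0.338). Ccr7 had medians of 4.44 and 4.12 CPM (0.25, SE 0.262), and Fscn1 of 351 and 359 CPM (-0.12, SE 0.126). The highest Siglech, 29.8 CPM, and the lowest Fscn1, 134.1 CPM, were in a transplant and lay outside the range of the primaries.

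Ptprc was higher in transplants by 1.01 (SE 0.172, adjusted p = 1.04e-05). So were 6 of 7 T cell genes and 5 of 5 genes of MHC class II presentation, the molecules that dendritic cells share with macrophages and B cells, while 4 of 4 fibroblast and sarcoma genes were lower. The other leukocyte lists were not higher as a whole. Of 7 macrophage genes 1 was called as higher, with a median log2 difference of -0.02. Of 5 B cell genes, 3 NK cell genes and 4 neutrophil genes 0 were higher, and 1 B cell and 1 NK cell gene were lower. Of all genes, 34.8% were called here. The summed class II genes had a median of 7601 CPM in transplants (3244 to 14327) and 2432 CPM in primaries (328 to 17914), and the summed T cell genes of 106.2 CPM (50.7 to 241) and 41.2 CPM (6.2 to 276). Their part in the differences of Batf3, Irf8 and Itgae was not tested. As shares of Ptprc, Irf8 stood at medians of 55.1% in transplants and 61.8% in primaries, Batf3 at 2.7% and 2.21% and Itgae at 0.673% and 1.77%.

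Under single treatments the models were compared with 4 against 8 tumors. Batf3 was called after the combination alone (log2 difference 1.46, SE 0.433, adjusted p = 0.0351), the sole gene of the 10 there against 6.76% of all genes. Its call was lost without replicate 2 (0.118) or 3 (0.166) of those transplants, or replicate 1, 2, 5, 6, 7 or 8 of those primaries (0.054 to 0.0705), and Irf8 was called there as well without replicate 3 (0.0479) or 4 (0.0361) of those primaries. In untreated tumors edgeR called 0 of the 10 against 10.3% of all genes, with anti-PD-1 alone 0 against 7.35% and with radiation alone 0 against 4.87%. DESeq2 and limma voom also called 0 in these 3 comparisons. By edgeR, 2, 2 and 0 of the 10 had an unadjusted p under 0.05, against 4890, 4124 and 3599 of the 19327 genes tested. The ones among the 10 were Batf3 (1.10, SE 0.439) and Itgae (-1.39, SE 0.645) in untreated tumors, and Batf3 (0.92, SE 0.438) and Irf8 (0.97, SE 0.365) with anti-PD-1. Irf8 in transplants given anti-PD-1 alone lay above all 8 primaries given it, at 96.0 to 174 against 55.7 to 94.6 CPM. The share of all genes that separated these groups was not counted.

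In transplants, the highest Itgae and Ccr7 levels were in part of the tumors given anti-PD-1. Itgae stood at 0.859, 1.58, 1.44 and 1.10 CPM untreated, at 2.91, 1.52, 3.43 and 1.07 CPM with anti-PD-1, at 0.545, 1.51, 1.92 and 0.886 CPM with 20 Gy and at 0.780, 4.01, 3.46 and 2.69 CPM with both. Ccr7 showed a like split, at 2.17, 5.43, 3.22 and 2.98 CPM untreated, 11.6, 3.06, 14.5 and 2.87 CPM with anti-PD-1, 3.58, 4.15, 6.71 and 3.47 CPM with 20 Gy and 4.73, 15.2, 9.91 and 6.37 CPM with both. In each gene, some transplants given anti-PD-1 lay above all given isotype and others lay among them. This was not particular to Itgae and Ccr7. The highest transplant levels of Xcr1, Batf3, Irf8, Flt3, Fscn1 and Siglech also lay in tumors given anti-PD-1, and those of Clec9a and Zbtb46 in tumors given isotype. The share of all genes that did so was not counted.

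PD-1 blockade had no called effect on any of the 10 genes. In transplants, over both doses, edgeR called 0 of the 10 and 0% of all genes, and 383 of the 19327 genes had an unadjusted p under 0.05. Among the 10 only Ccr7 did (log2 change 1.11, SE 0.436, unadjusted p = 0.0143, adjusted p = 1), and Itgae had a fitted change of 1.01 (SE 0.499). In primaries 0 of the 10 were called, against 0.0155% of all genes, and changes ran from -0.11 for Siglech to 0.32 for Batf3. None of the 10 had an unadjusted p under 0.05 there, against 1331 of the 19327 genes. DESeq2 and limma voom called 0 in both models.

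The combination against untreated tumors, a comparison that shares its controls with radiation alone, called Irf8 in both models. In primaries 4 of the 10 were called, against 18.8% of all genes: Batf3 (log2 change 1.26, SE 0.375, adjusted p = 0.0156), Irf8 (1.08, SE 0.310, adjusted p = 0.0122), Ccr7 (1.22, SE 0.439, adjusted p = 0.0449) and Fscn1 (-0.59, SE 0.206, adjusted p = 0.0383). In a fit of these 16 tumors alone none stayed called, and with limma voom only Fscn1 did (Irf8 0.79, adjusted p = 0.0887). Batf3 was lost without replicate 3 of the treated primaries (0.92, adjusted p = 0.0745), Ccr7 without any of 8 libraries (untreated replicates 1, 3, 5, 7 and 8, treated replicates 3, 4 and 8, adjusted p 0.0619 to 0.173) and Fscn1 without any of 18. Those 18 were untreated replicates 1, 2 and 3, treated replicates 2, 3, 4, 5, 6 and 8, replicates 1, 2, 4 and 5 of the primaries given 20 Gy and isotype, replicates 1 and 6 of the primaries given anti-PD-1 alone, and replicates 2 and 4 of the untreated and 3 of the combination-treated transplants (adjusted p 0.0504 to 0.13). In transplants Irf8 was called (1.48, SE 0.443, adjusted p = 0.042), 1 gene against 4.41% of all genes, and the treated tumors, at 218 to 246 CPM, lay above the untreated ones, at 56.5 to 120.8 CPM. That call was lost without any of 7 of the 8 tumors compared, all but untreated replicate 3 (adjusted p 0.0576 to 0.176). Batf3 (1.62, SE 0.532, adjusted p = 0.0733, or 0.0481 without replicate 5 of the primaries given 20 Gy and isotype) and Fscn1 (-0.69, SE 0.292, adjusted p = 0.204) also had groups that did not overlap. The share of all genes whose groups separated in this way was not counted, and 3238 of the 19327 genes tested had an unadjusted p under 0.05. The separation is therefore not read as particular to these genes.

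Further genes of dendritic cells give context to the 10. After radiation in primaries 31.0% of all genes were called, and 3253 of the 19327 tested were called as higher, so the counts below are not read as particular to a list. In that comparison 3 of 7 other cDC1 genes rose, namely Tlr3, the sensor of double-stranded RNA (log2 change 1.42), Naaa (0.65) and Wdfy4, needed for cross-presentation (0.63). Of the genes of mature dendritic cells, 6 of 11 tested rose, among them the costimulatory Cd80 (1.91) and Cd86 (1.21), Cd40 (1.68) and the chemokine Ccl22 (1.41). The type 2 subset had 3 of 7 that rose, Clec10a (1.11), Clec4a4 (0.92) and Sirpa (0.72), which macrophages also express. The median log2 change was 0.63 for the other cDC1 genes, 0.66 for the type 2 genes and 0.67 for the mature genes, against 0.004 over all genes and 0.11 over the 10. Of the other plasmacytoid genes, 3 of 8 rose, namely Spib (1.22), the interferon-induced Bst2 (1.84) and Cox6a2 (2.33), which is also a muscle gene, and Tcf4 fell by 0.57.

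Among ligands and partners of the 10 genes, 7 of 10 rose in irradiated primaries. They were Flt3l, the ligand of Flt3 (log2 change 0.59), Ccl19, a ligand of Ccr7 (2.09), Csf2, the cytokine GM-CSF (3.83), Batf, a relative of Batf3 (1.23), Nfil3 (0.74), Cdh1, the ligand of the integrin that Itgae forms (0.70), and Itgb7, the chain that pairs with Itgae (0.67). Xcl1, the ligand of Xcr1, had a change of 0.41 without a call. In irradiated transplants, where 7.23% of all genes were called, 1 of these 10 rose, Csf2 (2.09), along with Tlr3 (1.38) and Wdfy4 (1.22) of the cDC1 genes, Clec4a4 (1.60) and Sirpa (0.96) of the type 2 genes, Cd40 (1.48), Cd80 (1.02) and Cd86 (1.01) of the mature genes and Bst2 (1.75). All 8 interferon-induced genes rose in irradiated primaries and 6 of 8 in irradiated transplants.

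Between the models, where 34.8% of all genes were called, 2 of 7 other cDC1, 5 of 11 mature and 2 of 7 type 2 genes were called, and nothing particular to these lists is read from the counts. Transplants were higher for Cadm1 (log2 difference 1.03) and Naaa (0.47) of the 7 other cDC1 genes. They were higher for Cd40 (1.39), Cd86 (0.61) and Relb (0.19) and lower for Cd200 (-0.74) and Socs2 (-0.72) of the 11 mature genes. Of the type 2 genes Clec4a4 was higher (1.24) and the lectin Mgl2 lower (-1.68). Of the ligands and partners, Ccl19 (1.93), Batf (0.82) and Nfil3 (0.71) were higher, and Ccl21a, the other ligand of Ccr7, lower (-2.49), though its near-identical copies make its count uncertain. None of 8 other plasmacytoid genes were called between the models by edgeR.

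The 10 genes fell into sets that ran together from tumor to tumor. Likeness was described as Pearson's r of log2 CPM after the group mean was subtracted, over 48 tumors. All genes of a tumor are read from the same library, so that its depth and its content of leukocyte RNA bear on them together, and no p is given. Xcr1 and Clec9a ran together most closely of the cDC1 genes (r = 0.88, Spearman's rho = 0.85), in the 32 primaries (0.89) as in the 16 transplants (0.83). Flt3 ran with Ccr7 (0.89) and Siglech (0.84), and Itgae with Ccr7 (0.82), Flt3 (0.81) and Xcr1 (0.80). Irf8 ran closer to Ptprc (0.91) than to any of the other 9 genes, with 0.72 for Siglech as the next. Batf3 was also nearest to Ptprc (0.75). Fscn1 had r of -0.69 with Siglech to -0.01 with Zbtb46, at or below 0 with each of the others.

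Some of these pairs held in primaries and not in transplants. Clec9a and Itgae had r of 0.83 in primaries and 0.07 in transplants, Clec9a and Ccr7 0.70 and 0.02, and Clec9a and Siglech 0.66 and -0.07. The difference between the models was not tested, and the transplants are 16 tumors of 4 groups.

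**Figure D3:**
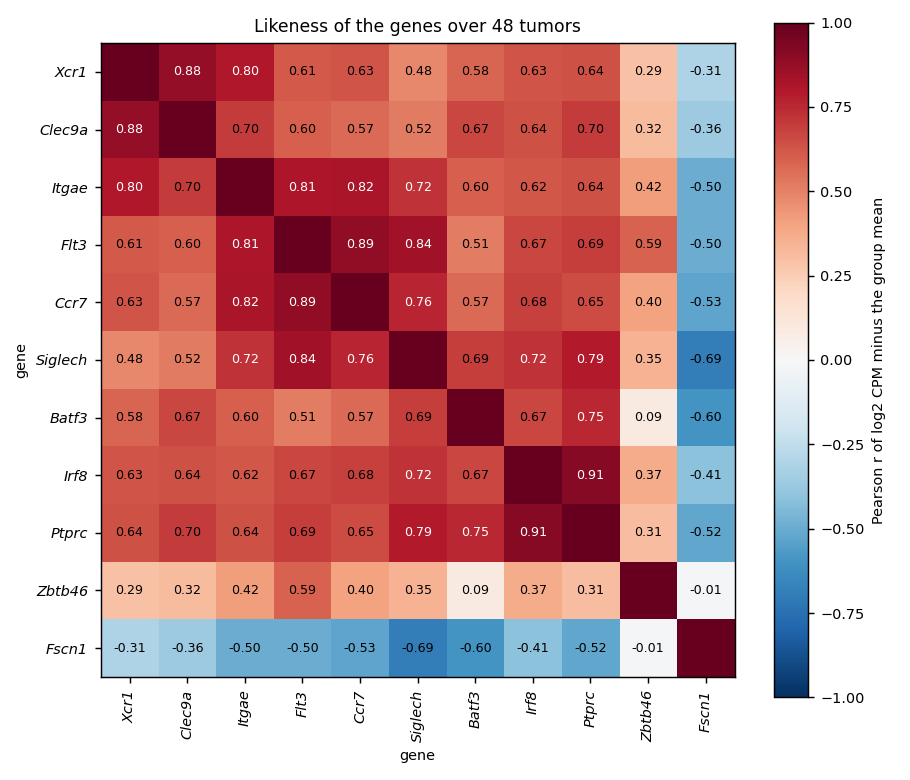
Pearson's r between the 10 genes and Ptprc over 48 tumors, computed on log2 CPM minus the group mean, from -1 (blue) to 1 (red). Xcr1 with Clec9a, and Flt3 with Ccr7 and Siglech, form the darkest blocks, Irf8 is darkest beside Ptprc, and the row of Fscn1 is blue.

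The nearest genes in the whole table, 13928 compared, followed the same lines. Xcr1 was nearest to Naaa (0.83), Bcl2l14 (0.82) and the class II chaperone Cd74 (0.81) among genes above the minimum level of this search, which Clec9a did not reach, and Clec9a to Xcr1 (0.88), Grap2 (0.81) and Ciita, the class II transactivator (0.80). Itgae was nearest to Btla (0.91), H2-Oa (0.87) and Bcl2l14 (0.86), and Flt3 to Gimap1 (0.92), Btla (0.91) and Cxcr3 (0.90). Ccr7 was nearest to Flt3 (0.89), Ltb (0.88) and Btla (0.87). Cxcr3, Ltb and Gimap1 are genes of lymphocytes as well.

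Siglech was nearest to Ccr9, a chemokine receptor of plasmacytoid cells (0.93), Cd7 (0.92) and Sla2 (0.89). Irf8 was nearest to Rasal3 (0.94), Sash3 (0.93) and Tifab (0.92), genes of blood cells, and Batf3 to Rp2 (0.82), Adap1 (0.80) and Ipcef1 (0.80). Zbtb46 was nearest to Sox13 (0.81), Neurl1b (0.78) and Sema3g (0.78), of which Sema3g is expressed in arterial endothelium. Fscn1 was nearest to Mad1l1 (0.83), Pcbp4 (0.82) and the collagen chaperone Fkbp10 (0.82). Of these 30 neighbours, 17 were kept with Spearman's rho and 12 without subtraction of the group mean.

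**Figure D4:**
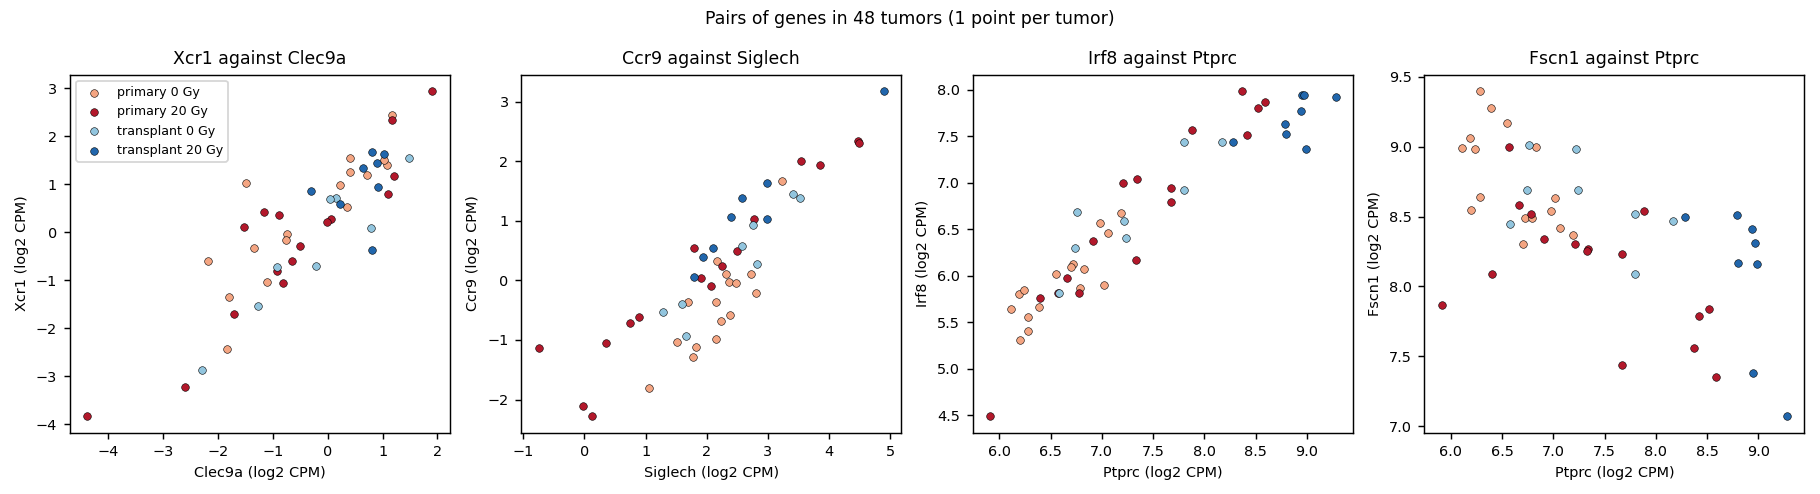
Log2 CPM of Xcr1 against Clec9a, Ccr9 against Siglech, Irf8 against Ptprc and Fscn1 against Ptprc, with 1 point per tumor coloured by model and dose. The first 3 pairs rise together in both models, while the tumors with the most Ptprc include those with the least Fscn1.

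Of the libraries named for line 402230, the one labelled P0I-402230 showed which of the 10 genes were counted with almost no leukocyte RNA present. Values here were scaled over all 50 libraries. In the library labelled P0I-402230, Fscn1 stood at 351 CPM (15713 counts), inside the 130 to 650 CPM of the tumors, and Zbtb46 at 5.72 CPM (256 counts), inside their 3.46 to 12.6 CPM. Irf8 stood at 2.37 CPM, under the lowest tumor at 21.6 CPM, and Batf3 at 0.402 CPM (18 counts), under the lowest at 0.900 CPM. Itgae had 5 counts, Flt3 2, Clec9a 1 and Ccr7 1. Xcr1 and Siglech had none, and 3 counts, the floor used here for a count of 0, would be 0.067 CPM. Class II genes summed to 0.313 CPM, against at least 337 CPM in the tumors.

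The library labelled CL0I-402230 lay nearer to the tumors. Irf8 stood at 34.7 CPM (1601 counts), Siglech at 4.53 CPM (209 counts), Flt3 at 2.54 CPM and Itgae at 1.15 CPM (53 counts), all inside the range of the 48 tumors. Ccr7 (0.910 CPM, 42 counts) and Batf3 (0.455 CPM, 21 counts) lay under the lowest tumor. Xcr1 had 4 counts and Clec9a 6. Zbtb46 stood at 5.68 CPM, close to its level in the other library, and Fscn1 at 194 CPM. Both libraries carried a single barcode in the labels, where the 48 tumors carried a pair. Neither has a replicate, so that intervals cover counting error only.

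**Figure D5:**
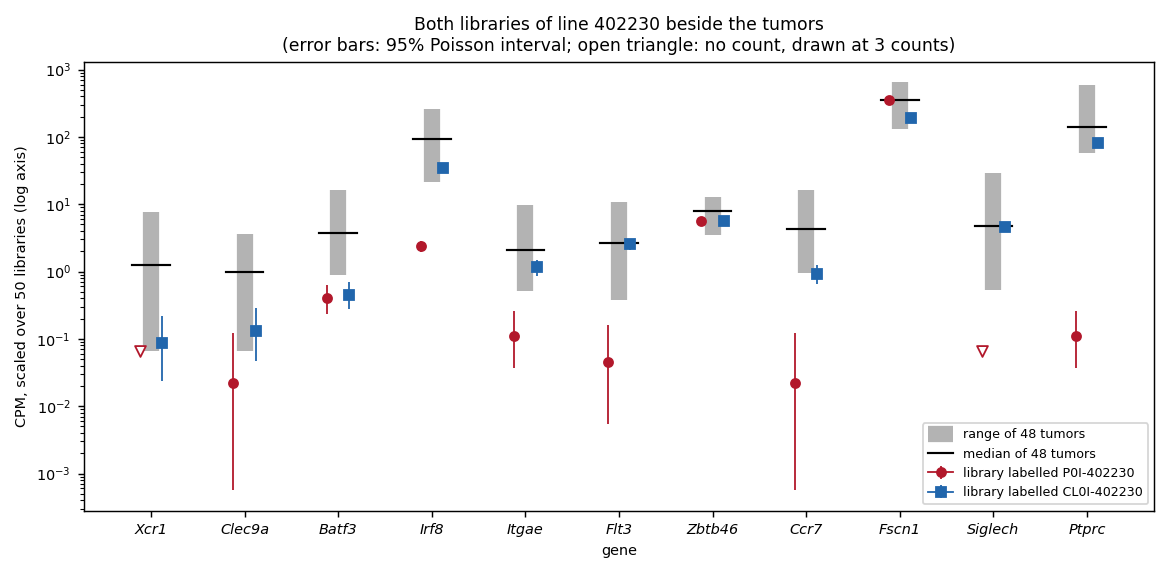
CPM of the 10 genes and Ptprc in the libraries labelled P0I-402230 (circles) and CL0I-402230 (squares) with 95% Poisson intervals, on a log axis beside the range (grey) and median (line) of 48 tumors; open triangles are counts of 0 and ranges are drawn no lower than 3 counts. In P0I-402230 Zbtb46 and Fscn1 lie within the drawn range of the tumors. Clec9a, at 1 count, lies under the drawn range but above 1 tumor, which had 0 counts. The other genes had less than the lowest tumor.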

How the data were processed

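RNA was measured in 48 tumors and in 2 libraries named for line 402230. According to its methods and labels, polyadenylated RNA was captured and stranded libraries were made; the authors cleaned the reads with Trimmomatic 0.36, placed them on mm10 with STAR and assigned them to GENCODE release M17 genes by the HTSeq method. The deposited values were raw counts per gene and library, with no normalization. The strand setting of the counting is not given in the sources used here.

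Identifiers were matched to symbols and positions of a later GENCODE release without their version. The filterByExpr function, given the groups, kept 19327 genes. Library totals were multiplied by TMM factors of 0.854 to 1.11. One edgeR 4.0.16 quasi-likelihood model with robust dispersions and a mean per group was fitted to the 48 tumors in R 4.3.3. Two-sided p-values were adjusted by Benjamini and Hochberg over the 19327 genes and called under 0.05. There were 16 comparisons, some of which share controls. Replicates were numbered in accession order and pair nothing, and p-values measure the spread between tumors. For transplants this is the spread between tumors of 1 line and holds no variation between lines. CPM are counts relative to the TMM-scaled library total, and log2 CPM carries a prior count of 2. Intervals and floors of 3 counts cover counting error only.

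The alternatives were RLE size factors, no scaling factor, no filter, DESeq2 1.42.0, limma 3.58.1 voom, the compared groups alone, the mean of the muscle markers as a covariate, the library labelled P0I-402230 added to the untreated primaries, and each library left out in turn. The 10 genes, the gene lists and the rule for named genes (the 10, list genes that were called or stood beside them, and the 3 nearest genes of each with a mean log2 CPM of at least 0) were chosen with earlier results of these data known.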

Additional observations from a re-analysis of the deposited data

Results flagged for a closer look

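In 3 of 80 groups of values, 1 per gene and group of tumors, a single tumor stood apart from the rest, by a rule that chance meets in about 1 of 20 groups. Xcr1 stood at a log2 CPM of -0.37 in replicate 1 of the transplants given 20 Gy and anti-PD-1, where the nearest of the other tumors stood at 1.34. Irf8 stood at 7.77 in the same tumor, with the nearest at 7.92, although its 218 CPM lay above all transplants with other treatments. Ccr7 stood at 0.13 in replicate 8 of the primaries given 20 Gy and isotype, the lowest of 8, with the nearest at 2.53.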

How the results depend on the processing

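Over 8 alternatives other than leaving out a library, 1222 of 1260 fitted changes of single genes kept their call or lack of one. Of the others, 25 weakened and 13 strengthened. No called value changed sign, and 57 values without a call did. The numbers of genes called are not among these values, and those that moved are given below. With libraries left out, 7609 of 7680 fitted changes kept their call or lack of one, 50 weakened and 21 strengthened. Of these, 0 called values changed sign and 232 uncalled ones did. The cause was not tested in any case below.

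Fitted to the compared groups alone, the number of the 10 genes called was 1 for transplant against primary with anti-PD-1 (Irf8), 0 with the combination, 1 for radiation in transplants with isotype and 2 for radiation in transplants over both antibodies, 0 for the combination in primaries and 2 in transplants; this could not be run for the 2 comparisons that use all 8 groups. Without a filter it was 0 for transplant against primary with the combination, 2 for the combination in primaries and 0 in transplants. Limma voom called 2 for transplant against primary with the combination, 2 for radiation in primaries over both antibodies, 1 for radiation in transplants, 1 for the combination in primaries (Fscn1) and 2 in transplants. DESeq2 called 2 for radiation in primaries with anti-PD-1, 1 for radiation in transplants and 2 for the combination in transplants. With the library labelled P0I-402230 added, 0 were called between the models with the combination and 0 for the combination in transplants. The muscle covariate gave 1 for radiation in transplants, and no scaling factor gave 0 for the combination in transplants.

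With 1 library left out, the number called ran from 0 to 2 between the models with the combination, 2 to 3 over the 4 treatments, 1 to 4 for radiation in primaries with isotype, 0 to 2 with anti-PD-1, 4 to 4 over both, 0 to 1 for radiation in transplants over both antibodies, 1 to 4 for the combination in primaries and 0 to 2 in transplants, and was 0 throughout in the other 8 comparisons. No paired analysis was possible because replicates carry no number that pairs tumors. Depth limits Xcr1 and Clec9a, whose counts reached 1 and 0 in a library.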
